A study of Mus musculus with 2 samples.

Results

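Gpnmb and the 4 genes of the MiT/TFE family, Mitf, Tfeb, Tfe3 and Tfec, were followed across the nuclei of interscapular brown adipose tissue (BAT) from wild-type (WT) and SRSF1-knockout (KO) mice. The 5 genes, of 32285 listed, were taken by symbol. They were chosen with earlier results of these libraries known, above all the level of Gpnmb in KO adipocyte nuclei, so both the difference in Gpnmb between the adipocyte nuclei of the genotypes and its level there against macrophage nuclei and doublet-like barcodes are descriptions of why the genes were picked and not independent results.

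Both genotypes were homozygous for a floxed Srsf1 allele (Srsf1 flox/flox) and 8 weeks old, and Adipoq-Cre was present in KO and absent from WT. Adiponectin regulatory sequence drives this Cre, which directs the deletion to adipocytes once they have differentiated. SRSF1 is a splicing factor of the SR family. Single-nucleus RNA-seq gave 1 library per genotype, with 12846 WT and 11495 KO barcodes. How many animals went into each library was not given in the sources used here. With 1 library per genotype there is no replicate, no test was run and no p-value is given. Each value compares these 2 libraries, and the 95% intervals printed are exact intervals that cover counting error only.

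GPNMB is a type I transmembrane glycoprotein of lysosomes and melanosomes, and it is well known as a gene that macrophages switch on when they are loaded with lipid. MITF, TFEB, TFE3 and TFEC are related basic helix-loop-helix leucine zipper factors that bind E-box sequences. Genes of lysosomes and autophagy are driven by MITF, TFEB and TFE3. MITF also drives melanosome genes. When nutrients are plentiful, the kinase complex mTORC1 phosphorylates MITF, TFEB and TFE3 at the lysosome, with the Rag GTPases and folliculin as partners. That keeps them in the cytoplasm. This control acts on the proteins, which RNA counts do not measure.

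In GRCm38, with GENCODE release M21, Gpnmb (ENSMUSG00000029816) lies on the plus strand at chr6:49036546-49070929. Mitf (ENSMUSG00000035158) is on the same chromosome at chr6:97807052-98021349, plus strand, and Tfec (ENSMUSG00000029553) at chr6:16833373-16898441, minus strand. Tfeb (ENSMUSG00000023990) is at chr17:47737030-47792419 and Tfe3 (ENSMUSG00000000134) at chrX:7762560-7775202, both on the plus strand. The stretch just before the RefSeq start of Gpnmb is shown because Gpnmb is the gene whose level the other values turn on. It covers the 250 bases of chr6:49036268-49036517 (GRCm38.p6, plus strand, RefSeq), and capitals mark its 1 match to the general E-box CANNTG, read on both strands.

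Gpnmb promoter: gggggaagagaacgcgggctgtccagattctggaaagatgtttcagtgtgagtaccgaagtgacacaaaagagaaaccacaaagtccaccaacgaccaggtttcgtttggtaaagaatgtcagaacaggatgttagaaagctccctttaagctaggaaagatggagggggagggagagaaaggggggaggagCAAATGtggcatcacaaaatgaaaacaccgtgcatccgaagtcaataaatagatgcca

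No CACGTG, the E-box that MiT/TFE factors favour, was found in this window, nor CATGTG, the other core that MITF is known to bind. Among 10 RefSeq promoter windows of the 5 genes, 0 held CACGTG and 0 held CATGTG on either strand within 250 bases before the start. Over all 32851 windows of the same length, 6.02% held CACGTG and 12.3% held CATGTG, and 66.2% held CANNTG, which contains both. A window without these letters says nothing about sites elsewhere in the gene.

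Nuclei were classed by the summed UMIs of marker genes per 10000 UMIs. Adipocyte nuclei had to pass 80 per 10000 over 8 markers (Adipoq, Plin1, Plin4, Cidec, Lipe, Pparg, Acsl1, Pde3b) and macrophage nuclei 20 per 10000 over 10 markers (Adgre1, Csf1r, Mrc1, Mertk, Lyz2, F13a1, Msr1, C1qa, C1qb, Cd163). These limits were set after the data had been seen. The adipocyte class held 6029 WT and 1838 KO nuclei, and the macrophage class 512 and 2975. Barcodes over both limits and no other, 165 in WT and 134 in KO, were kept apart as doublet-like. A further group, 115 WT and 834 KO nuclei, passed no limit but carried at least 20 UMIs per 10000 of 18 other leukocyte genes, and is called the leukocyte-gene nuclei below. Since a class is a range of a score, its edge matters: 666 WT and 447 KO adipocyte nuclei lay less than 25% above their limit, and 420 and 364 unclassed nuclei lay up to 20% under it. All 8 adipocyte and all 10 macrophage markers were detected in both classes of both libraries. Adipocyte markers summed to 14447 and 13113 CPM (UMIs per 1000000 UMIs summed over a class) in WT and KO adipocyte nuclei, and macrophage markers to 211 and 340 CPM. In WT endothelial nuclei they came to 4319 and 411 CPM, and in KO endothelial nuclei to 2980 and 579 CPM. Mertk alone gave 218 CPM in WT and 210 CPM in KO endothelial nuclei, against 51.2 and 57.6 CPM in adipocyte nuclei. These endothelial sums are therefore not a clean measure of stray RNA. Srsf1 itself was at 180 CPM in WT and 61.2 CPM in KO adipocyte nuclei, a log2 ratio of -1.55 (95% interval -1.65 to -1.46), and it was also lower in KO macrophage (-0.62) and endothelial nuclei (-0.73), where Cre is not driven.

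Different Leiden clusters held most of the adipocyte class in the 2 genotypes. WT adipocyte nuclei lay mainly in a cluster led by Kcnd2, Cabcoco1 and Ppargc1a and in a smaller one led by Nnat and Cyp2e1, while 1629 of the 1838 KO adipocyte nuclei lay in a single cluster led by Tmem132b, which held 11 WT nuclei. In WT, 1238 adipocyte nuclei lay in a shallow cluster led by mitochondrial genes, with a median of 1016 UMIs, that was given no name. For this reason the main values are also given for a stricter set, the adipocyte nuclei that also lie in a cluster named adipocyte by the same markers (4300 WT and 1631 KO).

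Gpnmb was low in WT adipocyte nuclei, below its level in the WT macrophage, ASPC and endothelial nuclei, and far higher in KO adipocyte nuclei. It was counted 390 times in WT and 3470 times in KO, which is 7.51 CPM (6.79 to 8.30) against 235 CPM (227 to 243). The ratio is 31.2-fold, a log2 ratio of 4.97 (4.81 to 5.12), and ranks 99 from the top of 15620 genes with at least 50 UMIs. In the stricter set the levels were 2.68 CPM, from 100 UMIs, and 215 CPM, from 2494 UMIs, an 80.2-fold ratio. A Gpnmb UMI was found in 2.74% of WT adipocyte nuclei (2.34 to 3.18) and in 44.2% of KO adipocyte nuclei (41.9 to 46.5). At these depths, medians of 6582 and 6258 UMIs, the shares in endothelial nuclei were 2.10% in WT and 11.9% in KO, at medians of 2143 and 2107.5 UMIs. After each nucleus was thinned to 1000 UMIs, a step that left out 538 WT and 65 KO shallower adipocyte nuclei, the adipocyte shares came to 0.492% in WT and 16.5% in KO. The thinned endothelial shares were 1.19% and 5.75%. The WT adipocyte share was therefore not above that in endothelial nuclei, and the KO share was.

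The UMIs were spread differently over nuclei. In WT, the 1% of adipocyte nuclei with the most Gpnmb held 73.3% of all Gpnmb UMIs of the class, and 5864 of 6029 nuclei held none. In KO, the top 1% held 18.2%, 1025 of 1838 nuclei held none, 293 held 1, 299 held 2 to 4, 137 held 5 to 9 and 84 held 10 or more. The WT level rested on few barcodes, while in KO it was shared by many.

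Gpnmb in KO nuclei was lowest where adipocyte markers were highest. Among nuclei over no other limit, it was 376 CPM at 40 to 60 adipocyte marker UMIs per 10000, 256 CPM at 60 to 80 and 301 CPM at 80 to 120. The leukocyte-gene nuclei were left out of these bins. That removed nuclei only under 80, as adipocyte nuclei rich in leukocyte genes stayed in the bins above it. At 120 to 200 it was 187 CPM, and at 200 or more it was 77.1 CPM, where 23.7% of 177 nuclei held a UMI. The matching WT levels were 29.3, 24.0, 17.4, 5.07 and 3.06 CPM. The KO level was above the WT level in each of the 5 bins. It was of the same order on both sides of the limit of 80, but the 2 sides were filtered unequally. Leukocyte genes were also fewest in the KO bin richest in adipocyte markers, at 2.11 UMIs per 10000 against 8.72 in the bin of 80 to 120; their part in the slope was not tested.

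**Figure D1:**
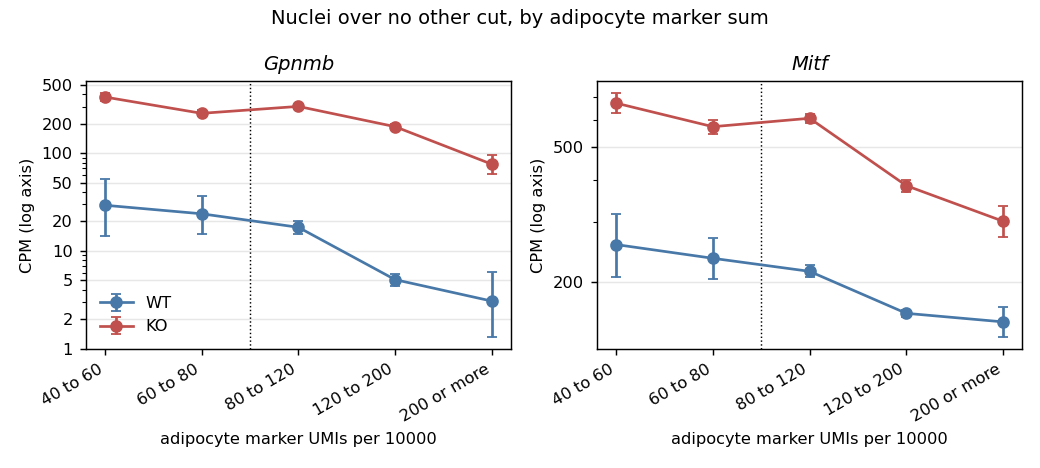
Summed level of Gpnmb (left) and Mitf (right) in CPM, on log axes, by the sum of 8 adipocyte markers per 10000 UMIs. Nuclei were over no limit other than that for adipocytes, and the leukocyte-gene nuclei were left out. Points are 1 library each, WT in blue and KO in red, bars are 95% Poisson intervals and the dotted line is the class limit; Gpnmb in KO goes from 376 CPM in the lowest bin to 77.1 CPM in the highest and lies above WT throughout.

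Gpnmb was also high in macrophage nuclei. They held 156 CPM in WT, from 345 UMIs, and 262 CPM in KO, from 4694 UMIs, a log2 ratio of 0.74 (0.59 to 0.91). The 1% of nuclei with the most Gpnmb held 43.5% of these UMIs in WT and 31.4% in KO. Without the 2 highest nuclei of each library the levels were 120 and 250 CPM, so the ratio leans on few WT nuclei. Of WT macrophage nuclei 13.9% held a UMI, and of KO macrophage nuclei 26.1%. The leukocyte-gene nuclei, of which 35 in WT and 572 in KO had 10 or more UMIs per 10000 of the lipid macrophage genes described below, had higher levels still, 523 CPM in WT and 718 CPM in KO. Without their 2 highest nuclei these levels were 371 and 679.5 CPM. Preadipocyte-like nuclei (adipose stem and progenitor cells, ASPC) held 31.7 CPM in WT and 133 CPM in KO, endothelial nuclei 13.2 and 80.4 CPM, and mural nuclei 9.16 and 70.5 CPM. The mural values rest on 8 WT and 46 KO UMIs and were 2.33 and 46.8 CPM without the 2 highest nuclei. Among these 6 groups the WT order was leukocyte-gene, macrophage, ASPC, endothelial, mural and adipocyte nuclei, with the intervals of mural nuclei overlapping those on both sides. In KO it was leukocyte-gene, macrophage, adipocyte, ASPC, endothelial and mural nuclei, and the intervals of the last 2 overlapped. Adipocyte nuclei were thus last of the 6 in WT and the third in KO. Nuclei that passed no limit and held few leukocyte genes, which stand outside this order, had 28.2 CPM in WT and 290 CPM (277 to 304) in KO, the latter above both KO macrophage and KO adipocyte nuclei. Lymphocyte-like nuclei, 34 in WT and 80 in KO, held 2 and 24 Gpnmb UMIs. Each of the 6 had more Gpnmb in KO than in WT, endothelial and mural nuclei included, and the part of free RNA in these values was not tested.

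**Figure D2:**
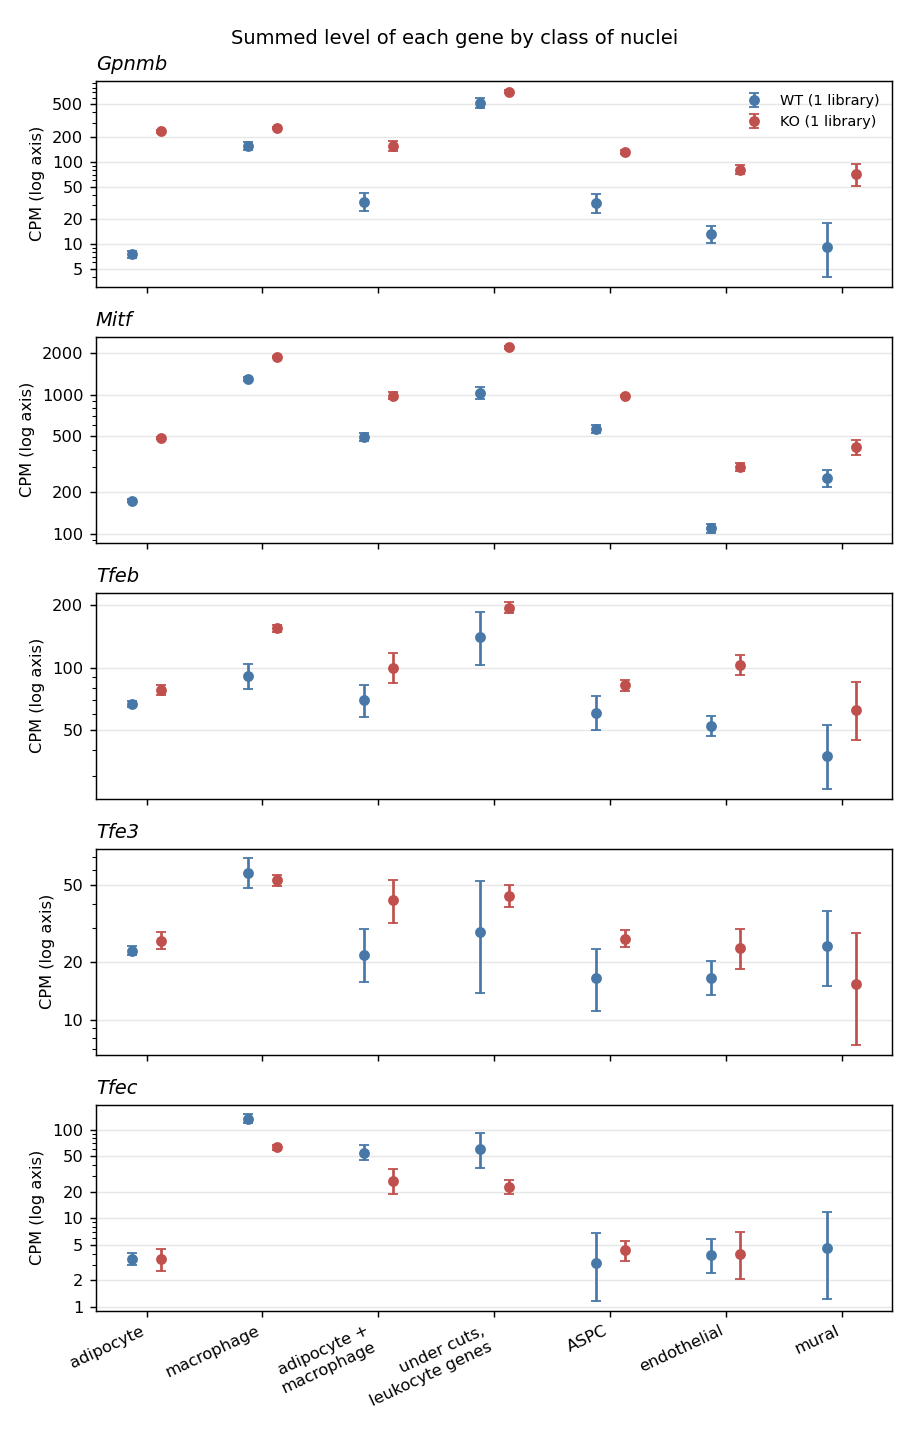
Summed levels in CPM, on log axes, of Gpnmb, Mitf, Tfeb, Tfe3 and Tfec in 7 classes of nuclei, WT in blue and KO in red, 1 library each, with 95% Poisson intervals; adipocyte + macrophage marks the doublet-like barcodes, and under cuts the leukocyte-gene nuclei. Gpnmb in adipocyte nuclei goes from 7.51 to 235 CPM, Tfeb and Tfe3 lie close together there, and Tfec is higher in macrophage than in adipocyte nuclei and was counted 0 times in KO mural nuclei.

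The level of Gpnmb in macrophage nuclei followed that of 12 lipid macrophage genes fixed as a list, such as Trem2, Mmp12, Cd9 and Lgals3. WT macrophage nuclei with none of their UMIs had 10.4 CPM of Gpnmb (190 nuclei), those with under 10 per 10000 had 41.0 CPM (224 nuclei), and those with 10 or more had 633 CPM (98 nuclei). In KO the same bins held 42.2, 92.3 and 506 CPM, over 510, 1274 and 1191 nuclei. Within the richest bin the KO level was below the WT level, but the WT bin rests on 288 Gpnmb UMIs. The WT macrophage nucleus highest in Gpnmb, which lies in that bin, held 55 of them, so the direction leans on few WT barcodes. The KO class as a whole had the larger share of such nuclei. Fewer or more cells of a kind and less or more RNA per nucleus cannot be told apart in the sum of a class.

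In KO adipocyte nuclei Gpnmb was at 235 against 262 CPM, or 89.6% (85.7 to 93.6) of the level in KO macrophage nuclei, a log2 ratio of -0.16. That ratio depends on how the classes are drawn: it was -0.75 with Leiden clusters as classes, -0.64 with the leukocyte-gene nuclei counted as macrophages, and 0.18 when CPM was averaged over nuclei. The 10 macrophage markers, on which both classes were called, stood at 3.02% to 8.49%, with a median of 6.50%. The 18 other leukocyte genes, which played no part in the calls, had a median of 10.1% and a highest value of 62.1% in Cx3cr1, a chemokine receptor gene; the other 17 lay between 6.54% and 11.3%. Of the 12 lipid macrophage genes, Acp5 and Fabp5 stood above 100% and the median was 28.8%. Over all 13938 genes with enough UMIs, 79.6% were not more than 2-fold lower in KO adipocyte than in KO macrophage nuclei. As Gpnmb was picked for this level, nothing is read from its distance to the lists.

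**Figure D3:**
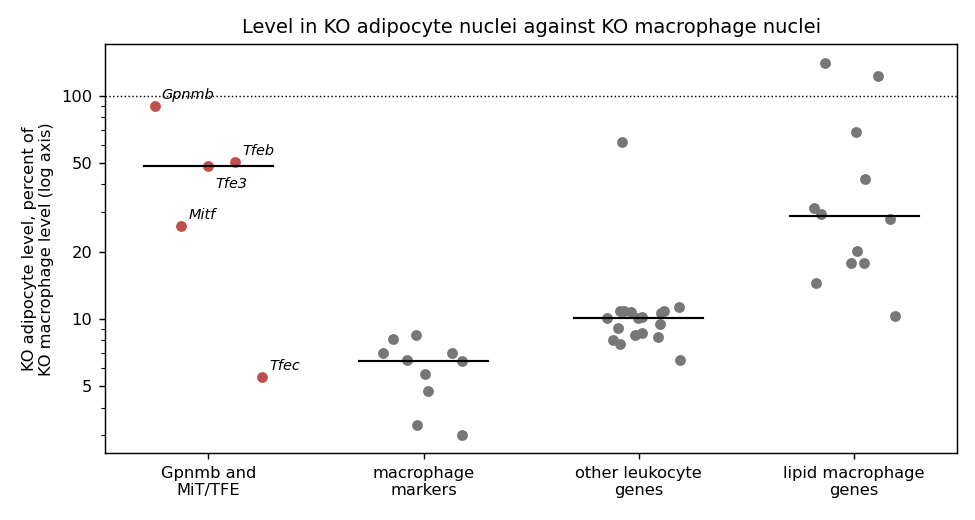
Level in KO adipocyte nuclei as a percent of the level in KO macrophage nuclei, on a log axis, for the 5 genes (red, named), 10 macrophage markers, 18 other leukocyte genes and 12 lipid macrophage genes (grey); 1 point is 1 gene in 1 library, and black lines are medians. Gpnmb lies at 89.6%, against medians of 6.50% and 10.1% for the macrophage markers and other leukocyte genes, and Tfec lies at 5.47%, among the macrophage markers.

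The stricter adipocyte set gave lower percents for Gpnmb and lower medians for the leukocyte and lipid macrophage lists. Gpnmb was at 81.9% of the level in KO macrophage nuclei, while the 18 leukocyte genes had a median of 4.02%. The 12 lipid macrophage genes had a median of 18.3%, from 4.18% in Atp6v0d2, a V-ATPase subunit, to 144% in Acp5. Mmp12, a metalloproteinase from the same list, was at 5.74%. The GPNMB-related genes ran from 7.19% in Cd44, which encodes a reported binding partner of GPNMB, to 368% in Sdc4. Compared with KO endothelial nuclei of the same library, Gpnmb was 2.92-fold higher in KO adipocyte nuclei, a log2 ratio of 1.55 (1.36 to 1.74). It was the 1 member of 5 that was at least 2-fold higher there, as were 22.1% of 12478 genes. All 18 of the leukocyte genes were lower in KO adipocyte than in KO endothelial nuclei, with a median log2 ratio of -0.55. Of the 12 lipid macrophage genes, 7 were lower there too, while others were higher, such as Lgals3 (1.76-fold) and Acp5 (1.96-fold). As Gpnmb was picked for its level in KO adipocyte nuclei, nothing is read from these contrasts.

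Doublets were looked at by splitting the adipocyte nuclei together with the barcodes over both the adipocyte and macrophage limits by their macrophage marker UMIs. KO Gpnmb was 210 CPM in the 637 nuclei with 0 macrophage marker UMIs, 245 CPM with 1, 236 CPM with 2 to 3 and 221 CPM with 4 to 7. With 8 to 15 it was 290 CPM, and with 16 or more, where 94 of 165 barcodes were doublet-like, 208 CPM. The summed leukocyte genes went from 200 CPM in the first of these bins to 2242 CPM in the last. KO Gpnmb thus showed no steady rise over these bins. KO adipocyte and macrophage nuclei held 235 and 262 CPM, so added RNA at the mean macrophage level could hardly move it. KO macrophage nuclei themselves ran from 42.2 to 506 CPM over the bins of lipid macrophage genes. Nothing about doublets is read from the course of KO Gpnmb. In WT, where the 2 classes held 7.51 and 156 CPM, it was 2.78, 3.28, 3.20 and 4.05 CPM in the first 4 bins. The last 2 WT bins held 37.3 and 29.3 CPM. Median depth rose too, from 5379 to 17502 UMIs in KO and from 6206 to 26711.5 in WT, and its part was not tested. With 0 macrophage marker UMIs, the KO level was 75.4-fold the WT level (log2 ratio 6.24, 5.84 to 6.66), from 55 WT and 823 KO UMIs.

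**Figure D4:**
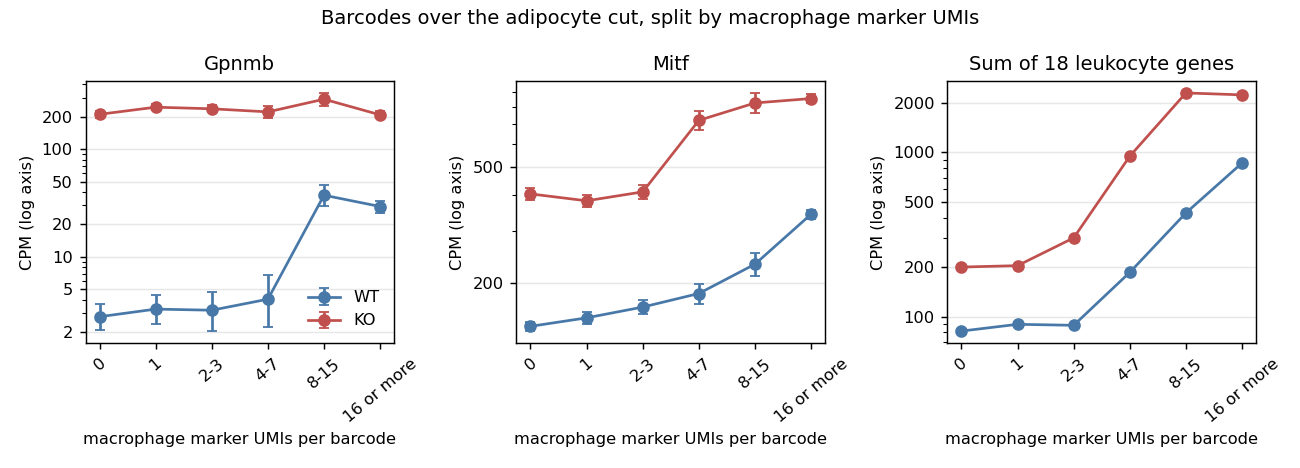
Adipocyte nuclei and barcodes over both the adipocyte and macrophage limits, split by macrophage marker UMIs per barcode: summed level in CPM on log axes of Gpnmb, Mitf and the sum of 18 leukocyte genes, WT in blue and KO in red, with 95% Poisson intervals for the 2 single genes. KO Gpnmb stays between 208 and 290 CPM over all 6 bins, while KO Mitf goes from 403 to 856 CPM and the leukocyte genes from 200 to 2242 CPM.

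Nuclei with no leukocyte UMI were also taken alone. In 2032 WT and 227 KO adipocyte nuclei with 0 UMIs of the 10 macrophage markers and of the 18 leukocyte genes, Gpnmb was counted 28 and 255 times, 2.35 against 197 CPM, a log2 ratio of 6.39 (5.82 to 7.01). In the 941 WT and 79 KO nuclei that also had 0 UMIs of the 12 lipid macrophage genes, it was counted 12 and 61 times, 2.86 against 156 CPM, a log2 ratio of 5.77 (4.86 to 6.80), and 29.1% of those KO nuclei held a UMI. The KO level was thus lower in these sets than the 235 CPM of the whole class. The doublet-like barcodes had 32.9 CPM in WT and 156 CPM in KO, so in KO they lay below both adipocyte and macrophage nuclei, and in WT between the 2. The WT value rests on 62 UMIs, 35 of them in 1 barcode, and was 10.2 CPM without the 2 barcodes highest in Gpnmb, while the KO value was 131 CPM without its 2 highest. Scrublet scores were another way to look: leaving out the top 10% of each library gave a log2 ratio of 5.09. That step removed 715 of 6029 WT and only 56 of 1838 KO adipocyte nuclei. The top 10% held 53 of the 134 doublet-like barcodes of KO. As the KO sum was little changed, nothing about doublets is read from this value.

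Among the MiT/TFE genes, Mitf was the one that differed by 2-fold or more between genotypes in adipocyte nuclei. Mitf was counted 8958 times in WT and 7200 times in KO adipocyte nuclei, 173 CPM (169 to 176) against 487 CPM (476 to 498), and a UMI was found in 49.8% and 74.97% of nuclei. The log2 ratio was 1.497 (1.45 to 1.54), or 1.42 (1.36 to 1.47) in the stricter set at 149 and 398 CPM, and 1641 of 15620 genes had a ratio at least as high. With Gpnmb, 2 of the 5 genes were at least 2-fold higher in KO adipocyte nuclei and 0 were at least 2-fold lower, where 17.8% and 18.4% of all 15620 genes were; as Gpnmb was chosen on this contrast, nothing is read from that count. Mitf was more abundant in macrophage nuclei, at 1295 CPM in WT and 1866 CPM in KO. Adipocyte nuclei reached 13.3% of that level in WT and 26.1% in KO, where Gpnmb, which was picked for its KO level, was at 4.80% and 89.6%.

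Mitf also moved with the macrophage transcripts in the adipocyte barcodes. Its KO level was 403, 382 and 409 CPM at 0, 1 and 2 to 3 macrophage marker UMIs, then 721, 827 and 856 CPM in the 3 higher bins. The WT level rose from 141 to 343 CPM over the same 6 bins. At 0 macrophage marker UMIs the KO to WT log2 ratio of Mitf was 1.51 (1.42 to 1.60), and in nuclei with no leukocyte UMI either, 1.63 (1.49 to 1.76). In the nuclei that also had no lipid macrophage UMI it was 1.248 (0.98 to 1.51), from 641 WT and 142 KO UMIs. The log2 ratio in endothelial nuclei was 1.476 (1.33 to 1.63), at 109 and 303 CPM, close to the adipocyte one, and it was 0.78 in ASPC, 0.75 in mural and 0.53 in macrophage nuclei. The Mitf difference was thus not peculiar to adipocyte nuclei; whether the classes differ in it was not tested.

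In the other groups of nuclei the members past 2-fold were mostly Gpnmb, Mitf and Tfec. Among members with at least 50 UMIs, Gpnmb and Mitf of 4 were at least 2-fold higher in KO endothelial nuclei, where 4.09% of genes were, and 0 were lower, where 11.3% were. Gpnmb was the 1 member higher in ASPC (of 5, background 6.24%), in mural nuclei (of 3, background 3.98%) and in doublet-like barcodes (of 5, background 9.36%). None of the members was at least 2-fold lower in ASPC or mural nuclei, where 10.9% and 7.6% of genes were. In leukocyte-gene nuclei Mitf was the 1 member higher, at a log2 ratio of 1.09 (background 9.5%). Tfec was the 1 member lower there and in doublet-like barcodes, with backgrounds of 10.5% and 10.6%. Barcodes over other sets of limits (1884 in WT, 1117 in KO) had log2 ratios of 2.83 for Gpnmb, 2.03 for Mitf and 1.64 for Tfec. Nuclei over no limit with few leukocyte genes had 3.37 for Gpnmb, 1.17 for Mitf and 1.04 for Tfe3. Tfec was at -1.48 there, from 18 and 27 UMIs. The share over all genes was not computed for these 2 groups. Over all kept nuclei Gpnmb, Mitf and Tfec were at least 2-fold higher, where 22.7% of genes were, and 0 members were lower, where 18.1% were; the KO library held more macrophage nuclei, so this sum also carries the makeup of the library. In the stricter adipocyte set Gpnmb and Mitf were higher (background 18.6%) and 0 members lower (background 18%), and with 0 macrophage marker UMIs the same 2 of 4 were higher (background 16.5%) and 0 lower (background 17.7%).

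Tfeb, the best known driver of lysosome genes in the family, was nearly level in adipocyte nuclei. It stood at 66.8 CPM in WT and 78.3 CPM in KO (log2 ratio 0.23, 0.13 to 0.33), and at 66.9 and 71.0 CPM in the stricter set (0.09, -0.03 to 0.20). In macrophage nuclei it was 91.2 and 155 CPM, a log2 ratio of 0.77 (0.56 to 0.98), and in endothelial nuclei 52.5 and 104 CPM, 0.98 (0.75 to 1.21). The log2 ratio of Tfeb was thus larger in those 2 classes than in adipocyte nuclei. The intervals do not overlap, but they cover counting error only, and whether the classes differ was not tested.

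Tfe3, a broadly expressed member, was at 22.8 CPM in WT and 25.7 CPM in KO adipocyte nuclei, a log2 ratio of 0.17 (0.00 to 0.34). The stricter set gave -0.02 (-0.23 to 0.18), and subtracting the endothelial level gave -1.57. Macrophage nuclei held 58.1 and 53.1 CPM, -0.13 (-0.40 to 0.15). No difference in Tfe3 was detectable beyond counting error in macrophage nuclei or in the stricter adipocyte set.

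Tfec, which is known as largely restricted to macrophages, was highest in them here. It was at 3.49 CPM in WT and 3.45 CPM in KO adipocyte nuclei, from 181 and 51 UMIs (log2 ratio -0.02, -0.49 to 0.44), levels like those of endothelial nuclei, 3.83 and 3.99 CPM. In macrophage nuclei it was 133 CPM in WT and 63.1 CPM in KO, a log2 ratio of -1.08 (-1.27 to -0.89), with a UMI in 33.0% and 21.7% of nuclei. It was the 1 member of 5 at least 2-fold lower in KO macrophage nuclei, where 10.3% of 12616 genes were, and 0 members were at least 2-fold higher, where 6.33% were. The leukocyte-gene nuclei showed the same direction, 59.96 against 22.8 CPM. KO adipocyte nuclei held Tfec at 5.47% of the macrophage level, inside the range of the macrophage markers.

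Within a genotype, nuclei with and without Gpnmb were set side by side. In KO adipocyte nuclei with a Gpnmb UMI (813) and without (1025), Mitf was at 561 and 398 CPM, Tfeb at 81.1 and 74.96 CPM, Tfe3 at 27.5 and 23.5 CPM and Tfec at 3.47 and 3.43 CPM. In WT adipocyte nuclei with a Gpnmb UMI (165) and without (5864), Mitf was at 292 and 162 CPM, Tfeb at 64.5 and 67.0 CPM, Tfe3 at 22.8 CPM in both and Tfec at 17.98 and 2.22 CPM. Mitf was higher beside Gpnmb in both genotypes, and Tfec in WT. In KO, nuclei with Gpnmb were also deeper (median 7477 against 5502 UMIs), held more leukocyte gene UMIs (7.80 against 3.73 per 10000) and fewer adipocyte marker UMIs (120 against 144 per 10000). In WT they were deeper too (median 11122 against 6541 UMIs) and held 5.33 against 1.42 leukocyte gene UMIs per 10000; the part of these in the difference was not tested. Srsf1 was at 55.1 CPM in KO adipocyte nuclei with Gpnmb and 68.4 CPM in those without. Split by Srsf1 itself, KO adipocyte nuclei with 0 Srsf1 UMIs had 216 CPM of Gpnmb (1285 nuclei) and those with 1 or more had 258 CPM (553 nuclei, median 9065 against 5442 UMIs).

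The genes that MiT/TFE factors are known to drive were taken as 2 lists. Of 37 lysosome genes (cathepsins, V-ATPase subunits, hydrolases and membrane proteins), 6 were at least 2-fold higher and 1 at least 2-fold lower in KO adipocyte nuclei, with a median log2 ratio of 0.37, against 17.8% and 18.4% of all genes and a median of 0.04. Atp6v0d2, a V-ATPase subunit of macrophages and osteoclasts, went from 2.74 to 52.0 CPM (log2 ratio 4.25, 3.99 to 4.52). In endothelial nuclei the same gene went from 7.13 to 67.1 CPM, so KO endothelial nuclei held more of it than KO adipocyte nuclei. Naglu, a heparan sulfate hydrolase, went from 1.252 to 4.40 CPM (1.81, 1.29 to 2.33), and Atp6v1h, a subunit of the V1 sector, from 223 to 709 CPM (1.67). Cd63, a tetraspanin of late endosomes, stood at 8.23 and 25.3 CPM (1.62), Glb1 at 11.4 and 29.8 CPM and Cln3 at 14.7 and 36.9 CPM. Ctsf, cathepsin F, was the 1 gene lower, 13.7 against 3.04 CPM (-2.17, -2.63 to -1.73). The stricter adipocyte set gave the same counts, 6 and 1 of 37, with a median of 0.30. In macrophage nuclei 1 was higher and 1 lower, where 6.33% and 10.3% of genes were, with a median of 0.06.

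Of 9 autophagy genes with enough UMIs, out of 10, Wipi1 and Sqstm1 were at least 2-fold higher and Wipi2 at least 2-fold lower in KO adipocyte nuclei, with a median of 0.26. With 17.8% of all genes higher and 18.4% lower, these counts are near the background. Sqstm1 encodes p62, an adaptor that carries cargo to autophagosomes, and went from 78.6 to 224 CPM (log2 ratio 1.51). Wipi1 and Wipi2, phosphoinositide-binding proteins of the forming autophagosome, went opposite ways, from 8.88 to 26.7 CPM (1.59) and from 187 to 62.6 CPM (-1.58). In macrophage nuclei 0 of 9 passed 2-fold in either direction (background 6.33% and 10.3%), with a median of -0.06.

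The genes that hold the factors at the lysosome or release them were a list of 22 (mTORC1, Rag GTPases, the Ragulator complex, folliculin with its partners, TSC, calcineurin, GSK3B and exportin). In KO adipocyte nuclei 1 was at least 2-fold higher and 3 were at least 2-fold lower, with a median of -0.12. Lamtor1, which anchors Ragulator to the lysosome, went from 35.3 to 99.4 CPM (1.495). Flcn, folliculin, a GTPase activator for RagC and RagD, went from 135 to 55.8 CPM (-1.27, -1.38 to -1.17). Rragb, RagB, went from 4.87 to 1.49 CPM (-1.71, -2.41 to -1.08), and Lamtor2 from 11.7 to 5.28 CPM (-1.14). Mtor itself was at 288 and 268 CPM and Rptor at 282 and 347 CPM. These counts lie at or below the background of 17.8% and 18.4%, as do those of the lysosome list. Counts past 2-fold leave out smaller shifts. Of the 37 lysosome genes, 29 had a ratio above 0 in adipocyte nuclei and 20 in macrophage nuclei, while 9 of the present 22 did in adipocyte nuclei. The share of all genes above 0 was not computed, so nothing is read from these counts. The median over all genes was 0.04 in adipocyte and -0.01 in macrophage nuclei. In the stricter set the counts of this list past 2-fold were again 1 and 3. In macrophage nuclei, where 21 had enough UMIs, they were 0 and 1 (background 6.33% and 10.3%).

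Of the genes tied to GPNMB protein, Cd44 was at 20.3 CPM in WT and 85.2 CPM in KO adipocyte nuclei (log2 ratio 2.07, 1.95 to 2.19) and Adam17, a protease known to shed surface proteins, at 69.7 and 137 CPM (0.98). Adam10, another such protease, was at 111 and 126 CPM (0.19), and Sdc4, the syndecan that binds GPNMB, at 227 and 190 CPM (-0.26). Pmel, the melanosomal relative of Gpnmb, was counted 29 times in WT and 2 times in KO adipocyte nuclei, which leaves 1 of the 4 genes with enough UMIs at least 2-fold higher, near the background of 17.8%. Cd44 in the stricter set was 8.71 and 40.1 CPM (2.20).

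Leukocyte genes moved in the same direction in the adipocyte class. Of the 18, 13 were at least 2-fold higher and 0 lower in KO adipocyte nuclei, against 17.8% and 18.4% of all genes, with a median log2 ratio of 1.57. In the stricter set 8 were higher and 1 lower of 17 (background 18.6% and 18%), with a median of 0.99, and their sum was 94.4 CPM in WT and 191 CPM in KO. In KO endothelial nuclei 11 of 16 were at least 2-fold higher and 1 lower (background 4.09% and 11.3%), with a median of 1.84. Of the 12 lipid macrophage genes, 7 were at least 2-fold higher and 2 lower in KO adipocyte nuclei (background 17.8% and 18.4%). The part of these transcripts in the ratios of the other lists was not tested.

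**Figure D5:**
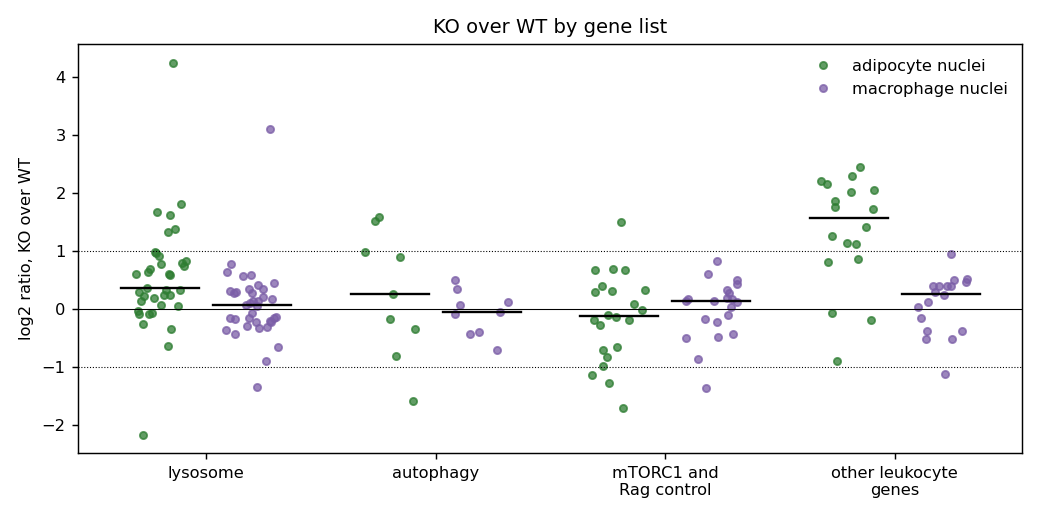
log2 ratio of KO over WT for single genes of 4 lists, in adipocyte nuclei (green) and macrophage nuclei (purple), 1 library per genotype; black lines are medians and dotted lines mark 2-fold. Adipocyte medians are 0.37 for lysosome genes, 0.26 for autophagy genes, -0.12 for mTORC1 and Rag control and 1.57 for other leukocyte genes.

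Promoters of the list genes were read for CACGTG in the same 250 bases. Of 27 lysosome genes with a RefSeq window, 15 held it (55.6%), against 6.86% of 27025 genes; as the list was drawn up from genes known to answer to these factors, that share is a description of the list. The 15 had a median log2 ratio in adipocyte nuclei of 0.61, from -2.17 to 1.81, and the 12 without it 0.25, from -0.63 to 1.62. Atp6v0d2 and Atp6v1h had no window and enter neither median. Of 8 autophagy genes with a window 0 held CACGTG, and of 20 mTORC1 and Rag genes 6 held it. The 4 windows below, of 30 bases each with CACGTG in capitals, are shown because their genes lie at the ends of these ranges and both directions hold the same 6 letters.

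Naglu window, chr11:101070009-101070038, plus strand of GRCm38.p6 (RefSeq), motif starting 73 bases before the gene start: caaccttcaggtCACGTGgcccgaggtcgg
Lamtor1 window, chr7:101905757-101905786, plus strand of GRCm38.p6 (RefSeq), motif starting 68 bases before the gene start: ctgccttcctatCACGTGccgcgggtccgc
Ctsf window, chr19:4855074-4855103, plus strand of GRCm38.p6 (RefSeq), motif starting 79 bases before the gene start: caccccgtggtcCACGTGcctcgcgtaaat
Rragb window, chrX:153139819-153139848, plus strand of GRCm38.p6 (RefSeq), motif starting 127 bases before the gene start: gagagcccgggcCACGTGatggcgggtggc

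Naglu and Lamtor1 were higher and Ctsf and Rragb lower in KO adipocyte nuclei, so the motif stood before genes of either direction. Rragb had a second match, nearer to its start.

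The genes most like Gpnmb in pattern were found by Pearson correlation of log2(CPM + 1) over 10 points, the 5 main classes of both libraries, among 12832 genes with at least 500 UMIs. The 5 most like it were Alcam (r = 0.97), Got1 (0.97), Ighm (0.97), Ern1 (0.97) and Rap2b (0.96). Alcam, a cell adhesion molecule, was at 44.6 CPM in WT and 776 CPM in KO adipocyte nuclei and at 747 and 1519 CPM in macrophage nuclei. Ern1, the IRE1 sensor of ER stress, was at 61.8 and 156 CPM in adipocyte and 117 and 167 CPM in macrophage nuclei. The points share 2 libraries and their free RNA, and the correlation is a description with no test.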

How the data were processed

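Single-nucleus RNA-seq of BAT was taken from 1 WT and 1 KO library. For each library the authors deposited a matrix of UMI counts (genes by barcodes), whole numbers with no normalization, aligned to mm10. The study's methods also describe an aggregation that evens out depth by down-sampling reads; whether these matrices come from before it was not stated. The submitters' processing notes name Cell Ranger 5.0.0 and Seurat 3.1.1; whether intronic reads were counted is not given in the sources used here. Depth was 93102814 UMIs in WT and 80090208 in KO. A barcode stayed in if it had 200 or more genes, no more than 10% mitochondrial UMIs, and log UMI and gene totals that lay less than 3 scaled median absolute deviations from its library's median (12771 of 12846 WT and 11378 of 11495 KO barcodes). The 2 libraries shared 52 barcode sequences, and 51 of these were kept in each.

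Classes were called from marker sums with at least 3 marker UMIs: 80 per 10000 UMIs for adipocyte, 30 for endothelial, 20 for macrophage, ASPC, mural, Schwann and muscle and 10 for lymphocyte, dendritic, mast and melanocyte markers. A barcode over 2 or more limits was kept out of the classes. In the results doublet-like means over the adipocyte and macrophage limits only. The alternative with doublet-like barcodes kept takes back all barcodes over 2 or more limits. Counts were summed per class and library and scaled to 1000000 (CPM). Intervals are exact Poisson for sums, exact Clopper-Pearson for shares and exact conditional for ratios, at 95%. PCR duplicates are removed by the UMIs, and intervals cover counting error only. A gene needed 50 UMIs over both libraries for a count of genes past 2-fold. The ratio step was tested on simulated data.

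The 5 genes and the lists were chosen with earlier results of these data known, and the limits of the classes were set after the data had been seen. Lists were the leukocyte, lipid macrophage, lysosome, autophagy, mTORC1 and Rag control, and GPNMB-related genes. Named genes are the 5 members, the list genes furthest from 0 or on which a value turns, and the 5 genes most like Gpnmb. Other genes named from lists, and the genes leading a cluster, were picked after their values were seen. Leiden clusters used 2000 variable genes, 30 principal components, 15 neighbours and a resolution of 0.5, run in Python 3.11.15 (igraph 0.11.9, scanpy 1.11.5); matplotlib 3.10.9 drew the plots. Scrublet marked 0% of WT and 20.6% of KO nuclei as doublets with its own threshold, which did not work in WT, so its scores were ranked within each library instead. Gene positions came from GENCODE release M21 and promoter windows from RefSeq (GRCm38.p6).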

Additional observations from a re-analysis of the deposited data

How the results depend on the processing

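Each ratio was recomputed under up to 15 alternatives; of 97 values, 68 stayed within the counting interval of the value reported, 26 moved outside it and 3 changed sign. Values are log2 ratios. Gpnmb in adipocyte nuclei (4.97) was 4.39 without the filter on barcodes, 5.25 with marker limits 1.5 times lower, 6.42 with Leiden clusters as classes, 6.32 in the stricter set and 6.24 with 0 macrophage marker UMIs. Mitf (1.497) was 1.19 with limits 1.5 times higher, 1.64 with lower limits, 1.56 as a mean over nuclei and 1.42 in the stricter set. Tfeb (0.23) was 0.014 with Leiden clusters, 0.087 in the stricter set and 0.39 with 0 macrophage marker UMIs. Tfe3 (0.17) changed sign, to -0.023 in the stricter set and -1.57 with the endothelial level subtracted, and Tfec (-0.02) was 0.44 with higher limits. Gpnmb in macrophage nuclei (0.74) was 1.18 with doublet-like barcodes kept, 1.14 with Leiden clusters, 0.52 with macrophage nuclei limited to clusters named macrophage and 0.34 with the endothelial level subtracted. Gpnmb in KO adipocyte over KO macrophage nuclei (-0.16) was -0.35 with higher and -0.45 with lower limits, -0.085 with doublet-like barcodes kept, -0.75 with Leiden clusters, -0.31 with both classes limited to clusters of their own name, -0.23 with the endothelial level subtracted, -0.32 with 0 macrophage marker UMIs and -0.64 with macrophages joined with leukocyte-gene nuclei, and changed sign to 0.18 as a mean over nuclei. The KO share of adipocyte nuclei with a Gpnmb UMI was 16.5% after thinning against 44.2%. Subtracting the endothelial level gave no value for Gpnmb, Tfeb and Tfec in adipocyte nuclei. For these changes the cause was not tested.
No paired analysis was possible because each genotype has 1 library, and for the same reason there was no replicate to leave out. The alternatives that removed barcodes under 2000 UMIs or used the stricter set (for macrophages, the nuclei in clusters of that name), 0 macrophage marker UMIs, or macrophages joined with leukocyte-gene nuclei were chosen after seeing the data. Depth limits Tfec in adipocyte nuclei, which rests on 51 KO UMIs, and all values rest on 2 libraries.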
